A study of Mus musculus with 4 samples.

Results

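Liver messenger RNA was measured for 40 genes of fatty acid oxidation, ketogenesis and the response to the nuclear receptor PPARalpha, chosen by gene symbol from the 22103 entries of an RNA-seq table. All 40 were found. They were compared between 2 WT mice and 2 Brg1LKO mice, in which *Smarca4*, the gene of the chromatin remodeler Brg1, is deleted with *Alb*-Cre, a recombinase driven by the hepatocyte albumin promoter. The mice were 8-week males, and the WT mice were littermates of the Brg1LKO mice. All 4 mice, controls included, had gone through the NIAAA procedure, an ethanol liquid diet ended by a single ethanol gavage, and the labels give 15 days of alcohol. Because no liver without alcohol was analysed here, the values describe genotype under alcohol and say nothing of the alcohol response itself. The livers were sampled whole, so the hepatocyte deletion was read through RNA that also came from the other liver cells. In such bulk samples fewer cells of a type and less RNA per cell cannot be told apart.

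Fatty acids are activated to acyl-CoA, and long chains enter mitochondria as carnitine esters, where rounds of beta-oxidation release acetyl-CoA that the liver can turn into ketone bodies. Very long and branched chains are shortened first in peroxisomes, and a side route in the endoplasmic reticulum, omega-oxidation, begins with Cyp4a enzymes. PPARalpha, a fatty acid sensor abundant in hepatocytes, pairs with RXR on a repeated DNA element and drives many of these genes in fasting and under lipid load. Ethanol metabolism is known to slow hepatic fatty acid oxidation.

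A repeat of the kind bound by PPARalpha with RXR is shown first, because the 40 genes are grouped here around that receptor. It is written as 2 copies of AGGTCA with 1 base between them, and it was searched on both strands of RefSeq promoters of GRCm38.p6, from 250 bases before to 50 bases after a gene start. Promoters were matched for 33 of the 40 genes. With at most 1 mismatch the repeat was found in 2 of the 33 (6.1%), against 0.6% of the 9061 tested genes with a promoter, and with at most 2 mismatches in 6 (18.2%), against 4.0%. With 3 mismatches allowed it stood in 39.4% of the 33 and in 25.0% of the tested genes, so a looser match says little. The 6 sites follow, each read along the gene's own strand, with the 13-base match in capitals between 6 flanking bases on each side. These matches are descriptions of sequence and not measured binding, and the search does not tell which factor would bind a match.
Fabp1, 1 mismatch, chr6:71199812-71199824, plus strand, beginning 67 bases before the start: aatcacTGACCTATGGCCTatatct
Acot12, 1 mismatch, chr13:91741411-91741423, plus strand, beginning 110 bases before the start: ggacccTGACCTCTCACCTcctaag
Acot4, 2 mismatches, chr12:84038366-84038378, plus strand, beginning 13 bases before the start: gaagcaTGACCTTTGGCCGgtctgt
Etfa, 2 mismatches, chr9:55512308-55512320, minus strand, beginning 77 bases before the start: acacccTTACCTTTGCCCTactccc
Creb3l3, 2 mismatches, chr10:81092788-81092800, minus strand, beginning 209 bases before the start of another of its transcripts: gtaagtAGGGGAGAGGTCAcacaga
Slc25a20, 2 mismatches, chr9:108662142-108662154, plus strand, beginning 6 bases past the start: gaatgtAGGTGAAAGGTCGgcggag
The first 4 carry the repeat on the strand opposite to the gene, so its half-sites appear as TGACCT-like letters, and the other 2 carry it on the gene's strand.

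Library totals recovered from the steps of low FPKM values lay between 72599105 and 80935544 reads, and *Smarca4* itself served as the check of the labels, at 1.78 and 1.95 FPKM in the WT livers against 0.608 and 0.579 FPKM in the Brg1LKO livers. A typical gene had higher FPKM in the second liver of each group, by a median of 0.27 on the log2 scale in WT and 0.30 in Brg1LKO, over the 12346 genes tested. Differences between livers of a group are therefore given below after the livers were rescaled to a common median ratio, where this is stated. Summed FPKM of 8 hepatocyte markers ranged from 20221 to 24737 in WT and from 20395 to 23339 in Brg1LKO livers, and the 8 Kupffer cell and macrophage markers summed to 39.0 and 39.3 in WT against 50.2 and 102 in Brg1LKO livers, all 8 having a positive log2 fold change and 2 passing the threshold. Of 8 sinusoidal endothelial markers, 7 had a negative log2 fold change, and 0 passed the threshold. Erythroid markers summed to 147 in Brg1LKO liver 1 and to 18.8 to 33.8 elsewhere. Most of that sum came from globin genes, whereas *Alas2* was at 7.79 FPKM in that liver and at 3.96 to 7.43 FPKM elsewhere. The 4 listed adipocyte markers summed to 43.9 in the same liver and to 2.55 to 5.03 elsewhere, nearly all of it *Cidec*. *Adipoq* and *Plin1* stood at 0 to 0.040 FPKM and *Cfd* at 0 in every liver, so that sum follows *Cidec* and does not measure adipocytes. What part cell composition had in the values of the 40 genes was not tested.

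None of the 40 genes passed the threshold, set at a more than 2-fold change together with an unadjusted p under 0.05 in limma on log2(FPKM + 0.1). Of the 12346 genes tested, 121 passed it (0.980%). At an unadjusted p under 0.05 alone the count was also 0 of 40, against 2.00% of all genes tested, and limma was the only tool run. It was 1 of 40, *Ppara*, after median-ratio rescaling, after quantile normalization and with the replicate block, beside 2.94%, 2.97% and 2.89% of all genes tested. No gene of the table had an adjusted p under 0.05. All 40 genes passed the expression filter of a mean of 0.1 FPKM. The median log2 fold change was −0.07 over the 40 genes and −0.02 over all genes tested, with 12 genes above 0 and 28 below. An exact permutation test of 4 livers in these groups could not give a two-sided p below 0.333, and limma combines the spread of each gene with that of the other genes. The p-values therefore rest on the spread between these 4 animals, both in the gene itself and over the other genes.

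Missing the threshold does not show that a gene was unaffected, and the width of the interval differed between compartments. The 95% confidence interval of the log2 fold change lay within a 2-fold change in either direction for 26 of the 40 genes, beside 59.6% of all genes tested. That held for 14 of 14 mitochondrial genes, whose intervals together ran from −0.98 to 0.90, for 4 of 7 peroxisomal genes, for 1 of 5 thioesterases and for 0 of 2 Cyp4a genes. For the thioesterases the intervals together ran from −2.10 to 1.44.

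**Figure D1:**
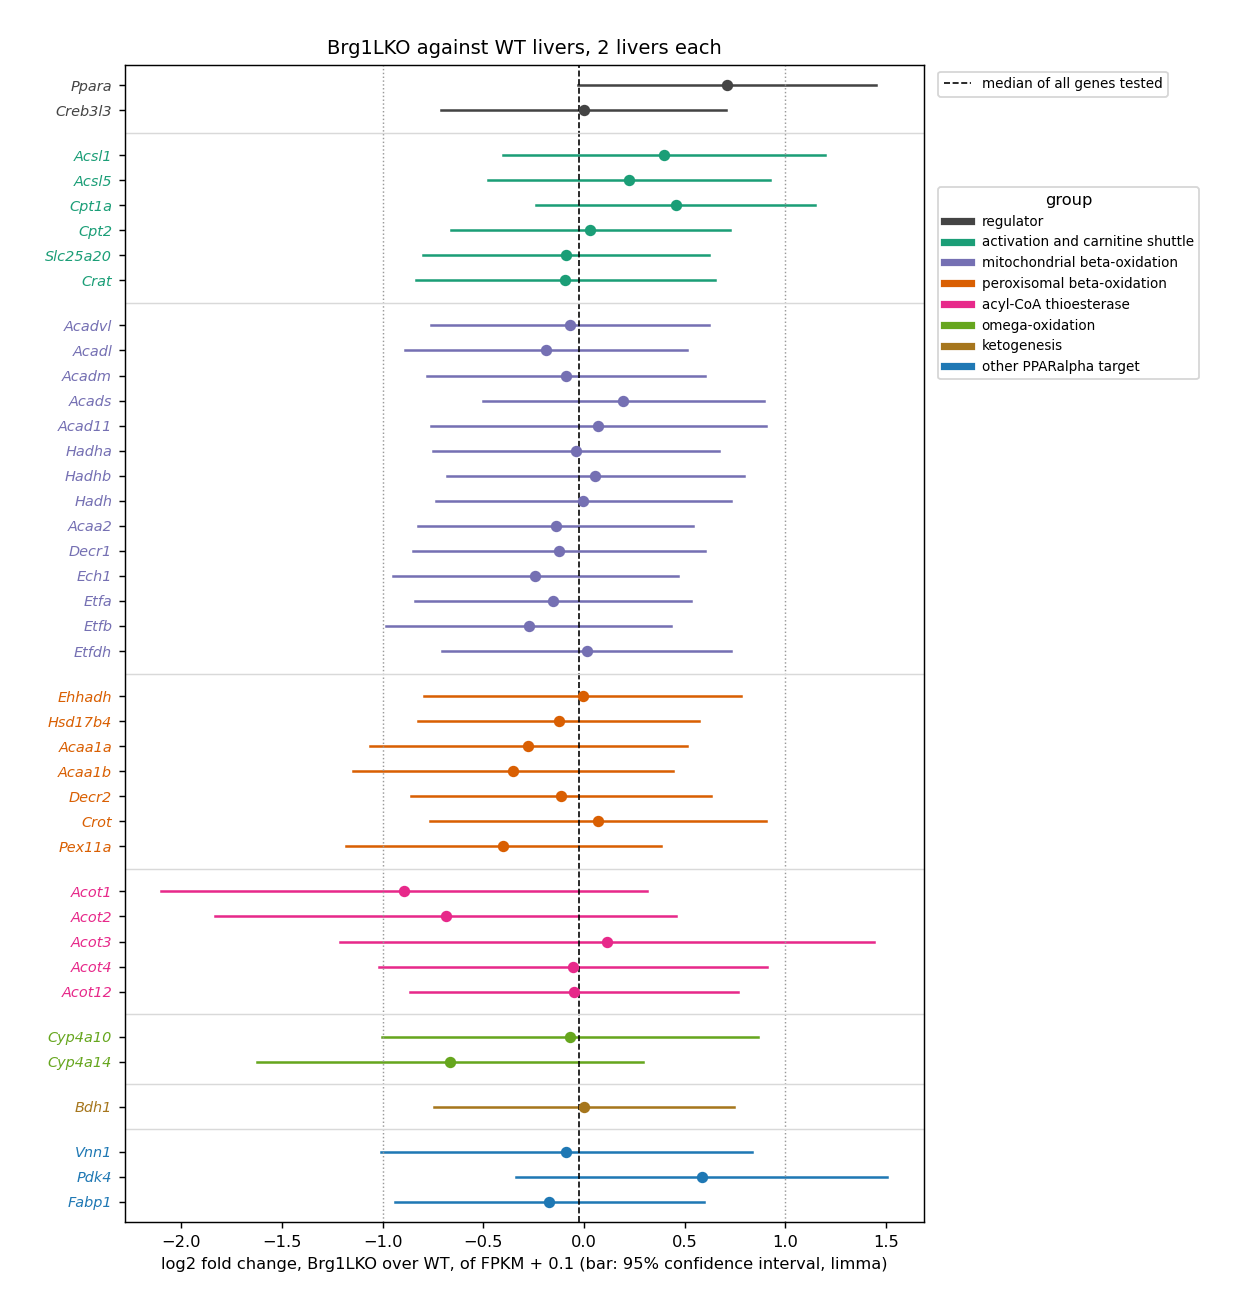
Log2 fold change of FPKM + 0.1 between Brg1LKO and WT livers (x axis) for each of the 40 genes (y axis, coloured by compartment), with bars for the 95% confidence interval of limma, a dashed line at the median of all genes tested (−0.02) and dotted lines at a 2-fold change. The intervals of the 14 mitochondrial genes stay within the dotted lines, whereas that of *Acot1* runs from −2.10 to 0.31.

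Both Brg1LKO values lay above, or both lay below, both WT values for 3 of the 40 genes (7.5%), beside 20.7% of all genes tested. The 3 were *Ppara*, *Cpt1a* and *Acsl5*, in each case higher in the Brg1LKO livers, as were 10.7% of all genes tested. After quantile normalization the count was 14 of 40, beside 29.4% of all genes tested. After rescaling of the livers it was 8 of 40, beside 29.0%. *Ppara*, *Creb3l3* (by a near tie), *Cpt1a*, *Acads* and *Etfdh* were then higher and *Acadl*, *Ech1* and *Etfb* lower.

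*Ppara*, which encodes the receptor, was at 1.58 and 1.80 FPKM in WT livers versus 2.39 and 3.34 FPKM in Brg1LKO livers. The groups did not overlap, and the Brg1LKO mean was 1.69 times the WT mean. Its log2 fold change, 0.71 ± 0.35 (SE), was the highest of the 40 genes and had the lowest p, 0.0592 unadjusted and 1.00 after adjustment in limma. The unadjusted p was 0.0109 after median-ratio rescaling, 0.0115 after quantile normalization, 0.0268 with the replicate block and 0.0158 without Brg1LKO liver 1, with log2 fold changes between 0.71 and 0.94, so the gene stayed short of the 2-fold part of the threshold in each. Without another liver the unadjusted p lay between 0.142 and 0.251, and under the remaining alternatives between 0.0535 and 0.0670. The gene lies on chromosome 15 (85735776 to 85802819, GRCm38, plus strand), and its values rest on an estimated 436 to 827 reads per liver. *Creb3l3*, a liver transcription factor that cooperates with PPARalpha in fasting, had 51.5 and 65.8 FPKM in WT livers versus 52.4 and 64.6 FPKM in Brg1LKO livers. Its groups overlapped almost completely as deposited, with the second liver of each group higher, as for a typical gene. After rescaling, liver 2 minus liver 1 was 0.04 on the log2 scale in WT and −0.02 in Brg1LKO. Both Brg1LKO values then lay above both WT values, as for 15.0% of all genes tested. The lower Brg1LKO value and the higher WT value were almost equal, so this separation is a near tie.

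In the activation and carnitine shuttle group the clearest separation was that of *Cpt1a*, the carnitine palmitoyltransferase of the outer mitochondrial membrane that sets the pace of long-chain entry. It was at 18.5 and 18.7 FPKM in WT livers versus 25.0 and 26.1 FPKM in Brg1LKO livers. On the deposited scale the livers of each group lay close together and the groups did not overlap, at a mean 1.37 times as high in Brg1LKO. After rescaling, liver 2 minus liver 1 was −0.29 on the log2 scale in WT and −0.26 in Brg1LKO, and the groups stayed apart. The log2 fold change of *Cpt1a*, 0.46 ± 0.32 (SE), had an unadjusted p of 0.180 in limma, whose shared spread is wider than the deposited gap within each group. The unadjusted p in limma was 0.060 after median-ratio rescaling and 0.073 with the replicate block. The gene is on chromosome 19 (3323285 to 3385733, GRCm38, plus strand).

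*Acsl5*, an acyl-CoA synthetase, was at 12.4 and 12.8 FPKM in WT and at 15.5 and 14.0 FPKM in Brg1LKO livers. The groups did not overlap as deposited but did after rescaling. The entry of *Acsl1*, the main acyl-CoA synthetase of liver, ranged from 2.21 FPKM in WT liver 1 to 4.55 FPKM in Brg1LKO liver 1, with overlapping groups. *Cpt2*, the inner membrane carnitine palmitoyltransferase, *Slc25a20*, the carnitine-acylcarnitine carrier, and *Crat*, carnitine acetyltransferase, had log2 fold changes between −0.09 and 0.03. The 6 genes had a median log2 fold change of 0.13, with 4 above 0.

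Most genes of mitochondrial beta-oxidation lay close together in the 4 livers, with *Acad11*, at 0.496 and 1.00 FPKM in the WT livers, as an exception. *Acadm*, medium-chain acyl-CoA dehydrogenase, was at 65.7 and 79.2 FPKM in WT livers versus 65.1 and 70.7 FPKM in Brg1LKO livers. The groups overlapped, and the log2 fold change was −0.09 ± 0.32 (SE) with an interval from −0.78 to 0.60. The 14 genes ranged in log2 fold change from −0.28 (*Etfb*) to 0.20 (*Acads*, short-chain acyl-CoA dehydrogenase), with a median of −0.08, 4 above 0 and 10 below. *Etfb* and *Etfa*, the subunits of the flavoprotein that takes electrons from the dehydrogenases, and *Ech1*, an isomerase for unsaturated chains, gave mean ratios of Brg1LKO to WT of 0.836, 0.895 and 0.838. *Hadha*, the alpha subunit of the trifunctional protein, ranged from 52.0 to 71.6 FPKM in WT livers and from 56.2 to 62.8 FPKM in Brg1LKO livers.

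How many genes of this compartment had separate groups depended on the scale, while the median log2 fold change was below 0 on each scale. Without WT liver 2 that median was 0.12, as was the median of all genes tested. As deposited, no mitochondrial gene had its groups apart. After rescaling, 2 of 14 had Brg1LKO values above and 3 had them below the WT values, beside 15.0% and 14.1% of all genes tested. After quantile normalization 1 lay above and 9 lay below, against 15.9% of all genes tested that lay below on that scale. The 9 were *Acadvl*, *Acadl*, *Acadm*, *Hadha*, *Acaa2*, *Ech1*, *Etfa*, *Etfb* and *Etfdh*, and the median log2 fold change of the compartment was then −0.13. *Etfdh*, the ubiquinone oxidoreductase that takes up these electrons, stood above after rescaling and below after quantile normalization.

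Levels in this group cannot be ranked gene against gene. The table holds 1 transcript per gene, and that of 7 of the 40 genes was a retained-intron transcript (*Acsl1*, *Acads*, *Acad11*, *Hadhb*, *Hadh*, *Etfdh* and *Acaa1a*), as for 5.96% of all annotated entries. *Hadhb*, the beta subunit of the trifunctional protein, was listed at 0.890 to 1.16 FPKM, on a transcript of 3 exons. Its partner *Hadha* starts 112 bases away on the opposite strand of chromosome 5. Whether reads of the coding transcripts entered such values is not stated. In addition, 11 of the 40 transcripts overlap another annotated gene, 10 of them on the opposite strand (among them *Acsl5*, *Acadvl*, *Hadha* and *Bdh1*), whose reads cannot be told apart if strand was not used. Over the 33 genes on a protein-coding transcript the median log2 fold change was −0.09, with 7 above 0 and 26 below.

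Of the 7 peroxisomal genes, 6 had a log2 fold change below 0, and the median was −0.13. *Ehhadh*, the bifunctional enzyme of the classical peroxisomal pathway, was at 28.5 and 54.8 FPKM in WT livers versus 38.8 and 39.8 FPKM in Brg1LKO livers. The Brg1LKO livers lay between the WT livers, with a log2 fold change of −0.01 ± 0.37 (SE). *Acaa1b*, a peroxisomal thiolase, was at 143 and 290 FPKM in WT livers versus 178 and 143 FPKM in Brg1LKO livers. Its lower mean in Brg1LKO, a log2 fold change of −0.35 ± 0.37 (SE), came with WT liver 2 alone above the rest. Without that liver the value was 0.16, beside a median of 0.12 over all genes tested.

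*Acaa1b* shares 34.4% of its 50-base windows with *Acaa1a*, the second thiolase gene, which lies on the opposite strand of chromosome 9 and stood highest in the same liver at 42.2 FPKM. Reads of the pair may have been divided between them, so the values of each are uncertain. *Pex11a*, which promotes peroxisome division, had 16.6 and 27.4 FPKM in WT and 19.2 and 13.6 FPKM in Brg1LKO livers, the lowest peroxisomal log2 fold change at −0.40. *Decr2*, an auxiliary enzyme for unsaturated chains, and *Hsd17b4*, the other bifunctional enzyme, differed less, at −0.11 and −0.13. *Crot*, carnitine octanoyltransferase, was the gene above 0, at 0.07, with 37.4 and 37.9 FPKM in the first liver of WT and Brg1LKO and 64.1 and 69.7 FPKM in the second.

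Among the acyl-CoA thioesterases, which release free fatty acid from CoA, the sign of the difference turned on single livers. *Acot1*, the cytosolic enzyme often used as a readout of PPARalpha, was at 3.34 and 17.2 FPKM in WT livers versus 4.91 and 3.35 FPKM in Brg1LKO livers. WT liver 2 was 5.17 times WT liver 1, which in turn lay at the level of Brg1LKO liver 2. The log2 fold change of −0.89 ± 0.56 (SE) was the lowest of the 40 genes, with an unadjusted p of 0.135 in limma. Without WT liver 2 it was 0.27, without WT liver 1 it was −2.06 and without Brg1LKO liver 1 it was −1.16.

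*Acot2*, the mitochondrial neighbour of *Acot1*, followed the same order of livers, with 7.10 FPKM in WT liver 2, 2.68 FPKM in Brg1LKO liver 1 and 1.6 FPKM in each of the other 2. The log2 fold change was −0.69 with all livers, 0.35 without WT liver 2, −1.73 without WT liver 1 and −1.04 without Brg1LKO liver 1. *Acot3*, a peroxisomal thioesterase, was at 0.314 and 2.41 FPKM in WT and at 0.730 and 1.37 FPKM in Brg1LKO livers, the lowest of these values resting on an estimated 87 reads. WT livers 1 and 2 were the lowest and the highest of the 4. The log2 fold change of 0.11 became 1.41 without WT liver 2 and −1.19 without WT liver 1. It was 0.53 without Brg1LKO liver 1 and −0.30 without Brg1LKO liver 2.

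*Acot4*, a thioesterase of short dicarboxylic acyl-CoA, was higher in the second liver of each group, and *Acot12*, which acts on acetyl-CoA, ran from 4.99 to 9.15 FPKM. *Acot1* to *Acot4* lie within 72542 bases of chromosome 12 (83987861 to 84060402, GRCm38, plus strand). *Acot1* shares 33.0% and *Acot2* 27.6% of their 50-base windows with other genes, mostly with each other, so reads of either could be counted in part for the other. The share is 7.69% for *Acot3* and 4.73% for *Acot4*, and *Acot12*, on chromosome 13, shares none.

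**Figure D2:**
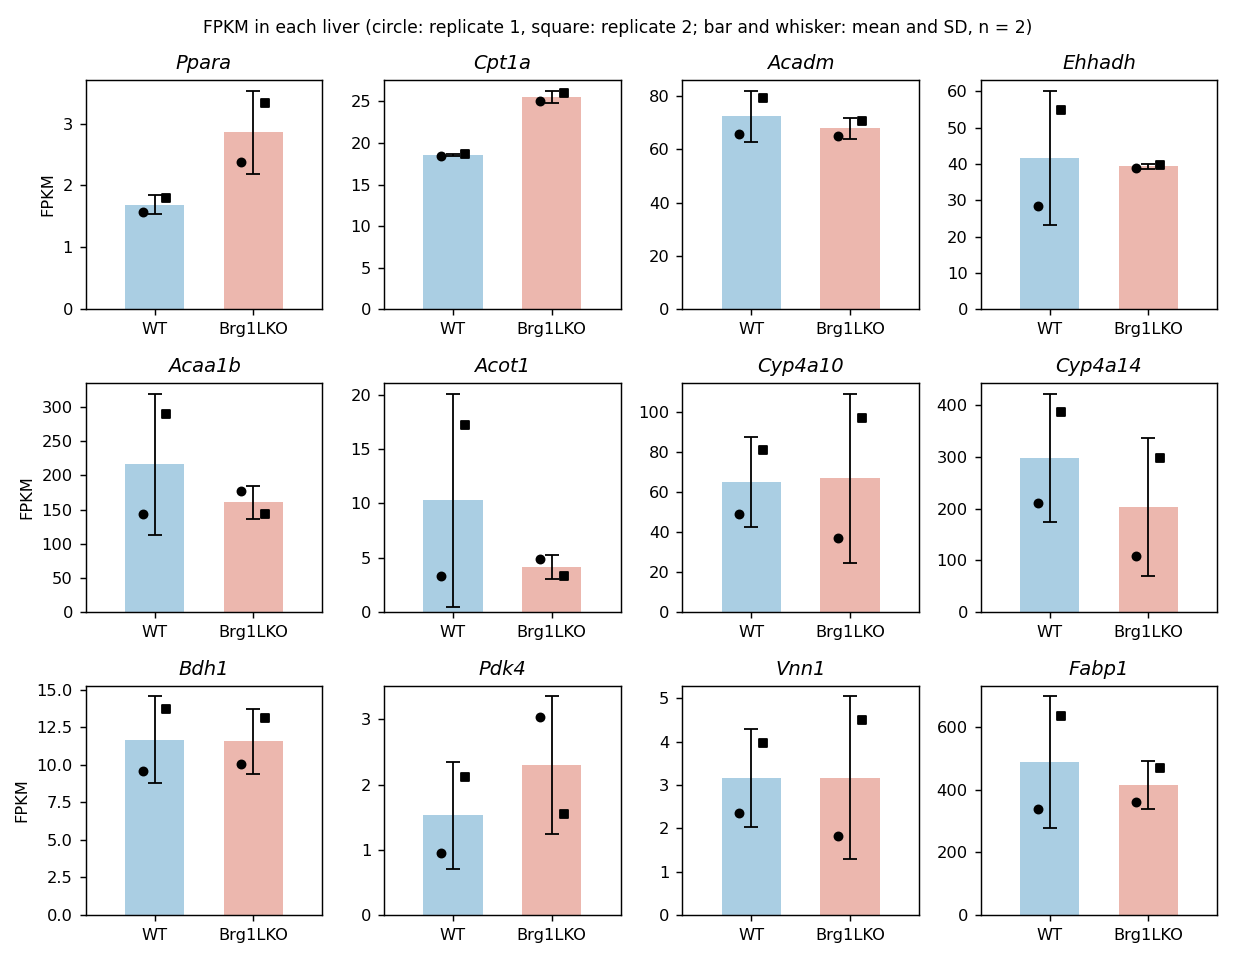
FPKM (y axis of each panel, starting at 0) of 12 of the 40 genes in the WT and Brg1LKO livers, with points for single livers and bars with whiskers for the mean and SD of 2 livers. *Cpt1a* is at 18.5 and 18.7 FPKM in WT and at 25.0 and 26.1 FPKM in Brg1LKO livers, whereas *Acot1* stands at 17.2 FPKM in WT liver 2 and at 3.34 to 4.91 FPKM in the other 3.

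On the deposited scale both omega-oxidation genes differed more between the livers of a group than between the genotypes. *Cyp4a14*, a fatty acid hydroxylase strongly inducible through PPARalpha, was at 211 and 386 FPKM in WT livers versus 109 and 297 FPKM in Brg1LKO livers. The groups overlapped, with the second liver higher in each. Its log2 fold change was −0.66 ± 0.45 (SE) with an unadjusted p of 0.159 in limma. It was −1.10 without WT liver 1, −1.39 without Brg1LKO liver 2 and 0.06 without Brg1LKO liver 1. After rescaling it was −0.63, and the WT livers then differed by 0.57 on the log2 scale, less than the genotypes.

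*Cyp4a10*, its neighbour within 47450 bases of chromosome 4, was at 48.9 and 80.8 FPKM in WT livers versus 36.9 and 96.8 FPKM in Brg1LKO livers. Both Brg1LKO livers lay outside the WT range, on opposite sides of it, and the log2 fold change was −0.07 ± 0.43 (SE). *Cyp4a10* shares 30.5% of its 50-base windows with other genes, 25.0% with *Cyp4a32*, and *Cyp4a14* shares none.

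*Bdh1*, the dehydrogenase that forms the ketone body 3-hydroxybutyrate, was at 9.62 and 13.7 FPKM in WT livers versus 10.1 and 13.1 FPKM in Brg1LKO livers. The means were close, at 11.7 ± 2.89 and 11.6 ± 2.17 FPKM (SD, n = 2 each), and the interval of the log2 fold change ran from −0.75 to 0.75. Of the 3 remaining PPARalpha targets, *Pdk4*, the kinase that closes pyruvate dehydrogenase in fasting, was at 0.943 and 2.11 FPKM in WT and at 3.04 and 1.55 FPKM in Brg1LKO livers. Brg1LKO liver 1 was the highest and the other liver of that group lay between the WT livers. The log2 fold change of 0.58 ± 0.43 (SE) did not pass the threshold with all livers. Without Brg1LKO liver 2 it was 1.05. It was 1.13 without WT liver 2, 0.12 without Brg1LKO liver 1 and 0.042 without WT liver 1.

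*Vnn1*, a pantetheinase at the cell surface, was at 2.36 and 3.96 FPKM in WT and at 1.83 and 4.49 FPKM in Brg1LKO livers. As for *Cyp4a10*, the Brg1LKO livers enclosed the WT livers. *Fabp1*, the abundant fatty acid binding protein of the hepatocyte cytosol, was at 338 and 636 FPKM in WT and at 362 and 469 FPKM in Brg1LKO livers. Its Brg1LKO values lay between the WT values, with a log2 fold change of −0.17 ± 0.36 (SE). *Fabp1* carries the repeat shown above with 1 mismatch, as does *Acot12*, and neither had groups that separated.

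On the deposited scale, the gap between the WT livers exceeded the difference between the genotypes for 36 of the 40 genes (90.0%), against 67.8% of all genes tested. That count includes the shift between libraries and was not made after rescaling. It took in 13 of the 14 mitochondrial genes. Their median log2 difference, WT liver 2 minus WT liver 1, was 0.32 as deposited and 0.02 after rescaling. As deposited, all 40 genes were higher in WT liver 2 than in WT liver 1, as were 80.3% of all genes tested, and after rescaling 27 of 40 were, against 48.3%. The size of the gap differed between compartments. After rescaling, the median absolute log2 difference between the WT livers was 0.07 for the mitochondrial genes, 0.47 for the peroxisomal genes and 1.78 for the thioesterases, beside 0.20 over all genes tested. Between the Brg1LKO livers the medians were 0.16, 0.52 and 0.84 in the same order, 1.09 for the Cyp4a genes, and 0.33 over all genes tested. These are descriptions of 2 animals per group.

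**Figure D3:**
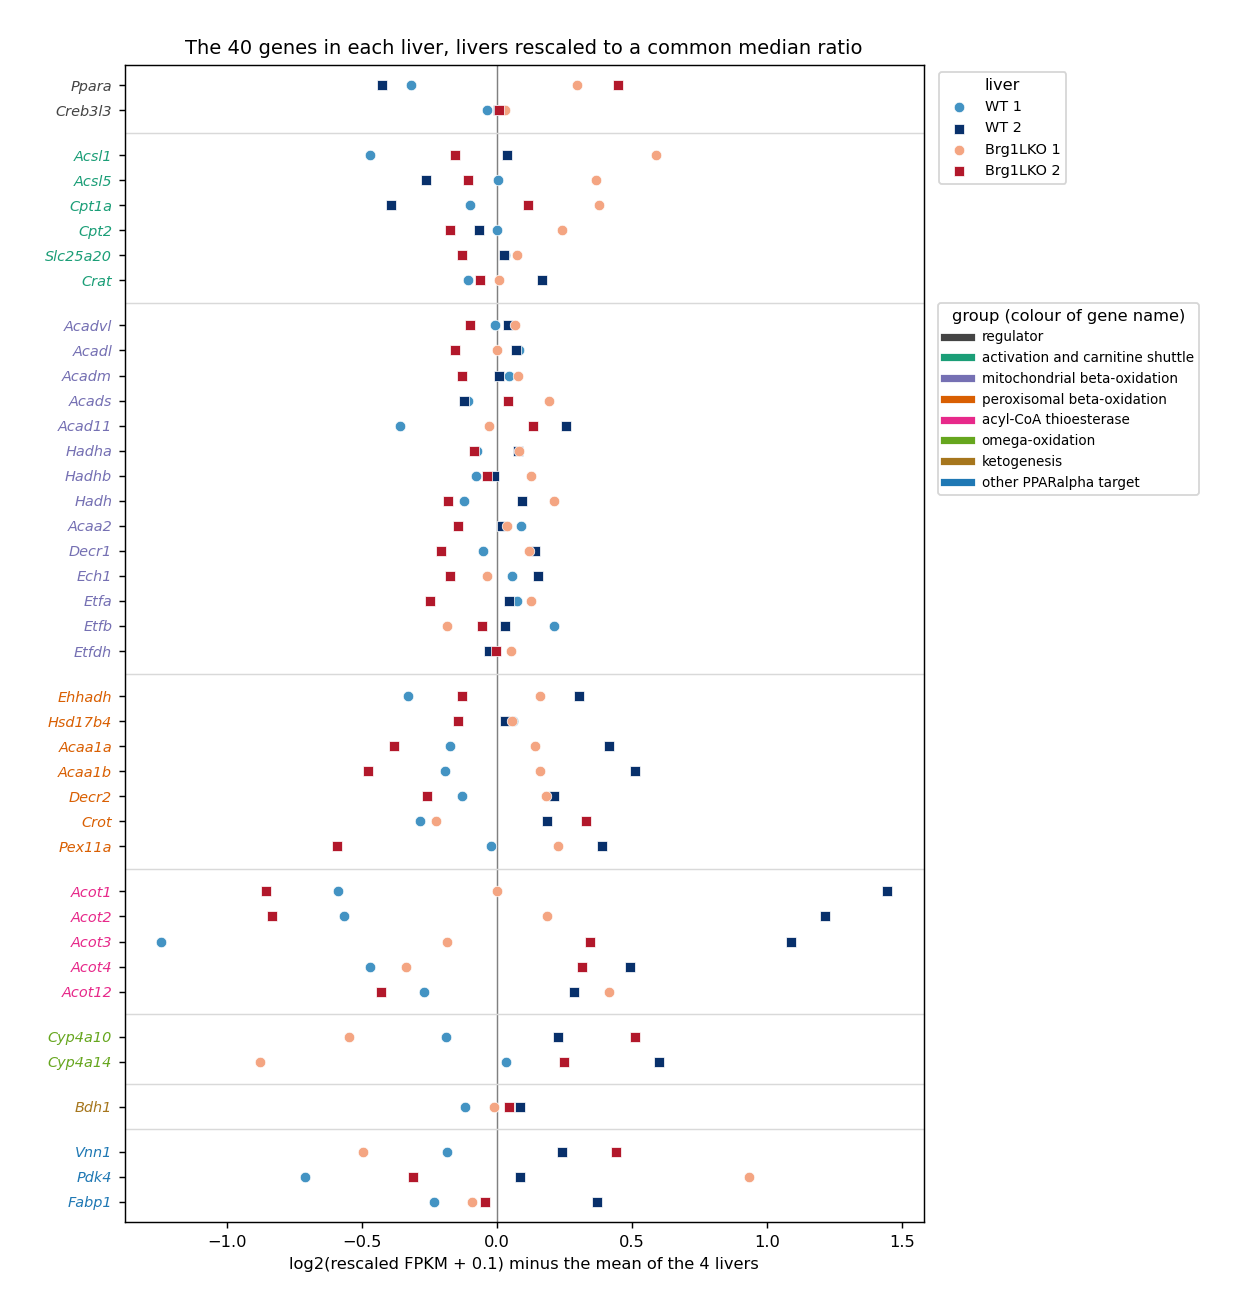
Each of the 40 genes (y axis, grouped by compartment) in each liver, as log2(rescaled FPKM + 0.1) minus the mean of the 4 livers (x axis). Most mitochondrial genes lie near 0, with *Acad11* spread more widely, *Acot1* to *Acot3* spread widely with WT liver 2 at the right, and *Ppara* has WT livers at the left and Brg1LKO livers at the right.

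The genes that varied did not all vary in the same livers. After rescaling, *Acot1*, *Acot2*, *Acot12*, *Acaa1a*, *Acaa1b*, *Ehhadh*, *Decr2*, *Pex11a*, *Acsl1* and *Pdk4* were higher in liver 2 of WT but lower in liver 2 of Brg1LKO, by 2.03 and −0.86 log2 units for *Acot1* and by 0.80 and −1.24 for *Pdk4*. *Cyp4a10*, *Cyp4a14*, *Vnn1*, *Crot*, *Acot3* and *Acot4* were higher in liver 2 of both groups, by 0.57 and 1.12 log2 units for *Cyp4a14* and by 0.42 and 0.94 for *Vnn1*. The livers' numbers are names only, and over all genes tested the deviations of same-numbered livers correlated at 0.039 after rescaling.

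**Figure D4:**
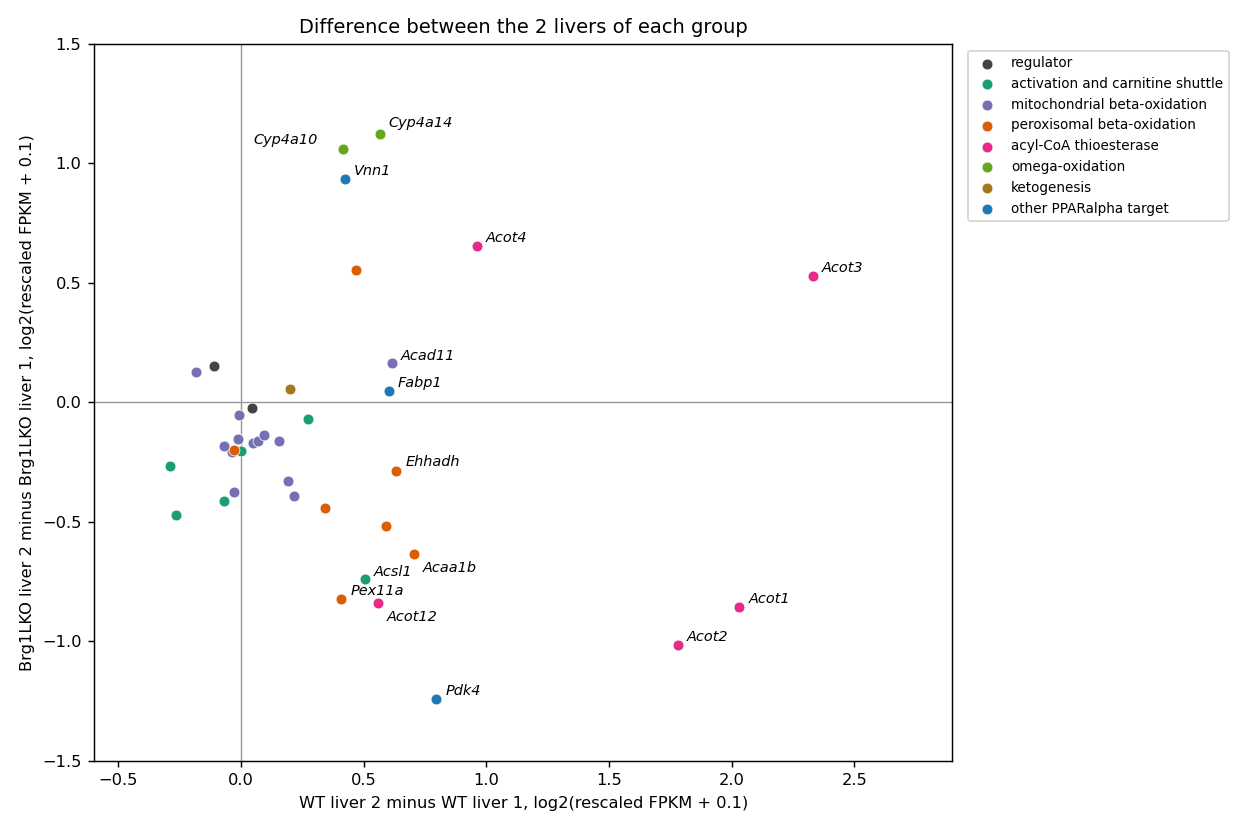
Difference between liver 2 and liver 1 of the WT group (x axis) and of the Brg1LKO group (y axis) in log2(rescaled FPKM + 0.1), 1 point per gene, coloured by compartment, with genes over 0.6 on either axis named. *Acot1* and *Acot2* lie far to the right and below 0, the Cyp4a genes and *Vnn1* lie above 0, and the mitochondrial genes crowd around the centre except *Acad11*.

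A list of 43 further genes of these pathways gave a similar count in limma. It had 0 past the threshold, beside 0.980% of all genes tested, and 0 at an unadjusted p under 0.05, beside 2.00%. The median log2 fold change was 0.02, with 23 above 0 against 20 below. The groups were separate as deposited for 4 of the 43, beside 20.7% of all genes tested, and after rescaling for 5, beside 29.0%. Among the 4 were *Scp2*, a peroxisomal thiolase and sterol carrier gene, *Acadsb*, a mitochondrial dehydrogenase, and *Plin2*, a lipid droplet coat gene, each higher in Brg1LKO livers. The groups of *Scp2* and *Acadsb* overlapped after rescaling. *Plin2* was at 168 and 220 FPKM in WT livers versus 244 and 241 FPKM in Brg1LKO livers, a log2 fold change of 0.33 ± 0.32 (SE) whose groups were also apart after rescaling.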

How the data were processed

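Whole-liver RNA-seq of 2 WT and 2 Brg1LKO mice was used. The authors deposited FPKM, calculated per gene with Cufflinks after Trimmomatic and HISAT2 mapping to GRCm38 according to the study's methods. The submitters' processing notes also name HISAT2 2.0.4 and StringTie 2.1.4. No scaling between libraries is stated. The methods describe stranded TruSeq libraries on an Illumina platform, whereas the labels name a BGIseq protocol, and it is not stated whether counting used strand. FPKM of 1 gene moves when abundant genes change.

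Tests used limma 3.58.1 under R 4.3.3 (eBayes with trend) on log2(FPKM + 0.1), over genes averaging 0.1 FPKM or more. A fold change on this scale understates that of low genes. The threshold was an unadjusted p under 0.05 and an absolute log2 fold change above 1, with Benjamini-Hochberg adjustment over all genes tested. Other computations used Python 3.11.15. The procedure was tested on simulated data. Library totals were estimated from the FPKM steps of transcripts of at least 2000 bases, where 88.4% to 89.6% of low values lay within 0.1 of a whole read, so reads per gene are estimates. Transcripts were looked up in GENCODE M21, and promoters came from RefSeq. The 40 genes, their groups, the further pathway list and the marker lists were chosen with earlier results of these data known. Statistics were given for genes with an unadjusted p under 0.05, for genes with separate groups and an absolute log2 fold change of at least 0.5, and for 12 genes listed for their roles. The values of *Acsl5*, *Acot2*, *Acot3* and the other genes given by liver outside this rule were chosen after they were seen. The alternatives were 2 pseudocounts, 2 filters, 2 scalings, eBayes without trend, a replicate block and each liver left out. Some genes of the further pathway list are not reported here.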

Additional observations from a re-analysis of the deposited data

How the results depend on the processing

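The count of the 40 genes past the threshold was 0 under the pseudocounts of 1 and 0.01, no filter, a filter at a mean of 1 FPKM, both scalings, eBayes without trend and the replicate block. It did not stay at 0 when a liver was left out. The log2 fold changes that follow are given by size, and not all of them passed the threshold. Without WT liver 1 the log2 fold change was −2.06 for *Acot1*, −1.73 for *Acot2*, −1.19 for *Acot3* and −1.10 for *Cyp4a14*. Without WT liver 2 it was 0.27 for *Acot1*, 0.35 for *Acot2*, 1.41 for *Acot3* and −0.23 for *Cyp4a14*. Without Brg1LKO liver 1 it was −1.16 for *Acot1*, −1.04 for *Acot2* and 0.060 for *Cyp4a14*. Without Brg1LKO liver 2 it was −0.62 for *Acot1*, −0.33 for *Acot2*, −1.39 for *Cyp4a14* and 1.05 for *Pdk4*. Such a fit takes the lone liver to vary like the other group. Over all genes the count of 121 became 18 at a pseudocount of 1, 80 with no filter and 68 with the filter at 1 FPKM, and 78 to 552 with a liver left out. Under the replicate block it was 108. The labels do not say that a number pairs livers, and the correlation of their deviations was 0.031 as deposited. Leaving out a liver also moved the median log2 fold change of all genes tested, to between −0.17 and 0.12, and it moved that of the 40 genes to between −0.33 and 0.22, that of the mitochondrial genes to between −0.27 and 0.12 and that of the thioesterases to between −1.19 and 0.38. The count of genes with separate groups, 3 as deposited, was 8 after median-ratio rescaling and 14 after quantile normalization, alternatives added after the data were seen.

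Of 144 values for 12 genes, 123 kept their direction and side of the threshold, 5 passed it when a liver was left out and 16 changed sign. Rescaling changed the sign for *Ehhadh* (0.028) and *Bdh1* (0.034). The fits with a liver left out used the deposited scale, where the median of all genes tested itself ran from −0.17 to 0.12. Leaving out 1 liver gave *Acadm* −0.22 to 0.047, *Ehhadh* −0.48 to 0.46, *Acaa1b* −0.86 to 0.16, *Acot1* −2.06 to 0.27, *Cyp4a10* −0.76 to 0.62, *Cyp4a14* −1.39 to 0.060, *Bdh1* −0.25 to 0.25, *Vnn1* −0.71 to 0.54, *Pdk4* 0.042 to 1.13 and *Fabp1* −0.63 to 0.28. The estimated reads of the 40 genes were 87 or more in every liver, and each group held 2 livers.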
